A study of Mus musculus with 8 samples.

Results

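Elastic fibres and the fibrillin microfibrils that carry them were followed through the 10 genes Eln, Fbn1, Fbn2, Mfap2, Mfap4, Mfap5, Fbln1, Fbln2, Fbln5 and Lox in bone marrow stroma of newborn mice. The genes were picked by symbol for their known roles, with earlier results of these data known. All 10 were found among the 15880 genes measured, each under a single Ensembl identifier. RNA sequencing was done on cells sorted from crushed and collagenase-digested bones of Nes-Gfp heterozygous pups on a C57BL/6 background at postnatal day 1. Each of the 8 libraries came from a pool of 3 pups and from 15000 to 80000 cells, with 2 libraries for each of 4 populations. The paper obtained each replicate set from pooled littermates, so same-numbered libraries may share a pool and need not be independent. The reported comparisons have no replicate term.

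The Nes-Gfp transgene expresses green fluorescent protein (GFP) under regulatory elements of the rat nestin gene, so GFP reports the transgene. The sorted cells were negative for CD45, CD31 and Ter119, surface proteins of leukocytes, endothelium and erythroid cells. They were separated by GFP and by the receptor Pdgfra into GFP− Pdgfra+, GFP+ Pdgfra+, GFP+ Pdgfra− and GFP− Pdgfra− cells. Between 3221217 and 5302762 reads per library fell on the measured genes. Values below are the authors' normalized values, which are reads per 1000000 of a scaled library size and are not divided by gene length. They include an offset of 0.5 reads, inferred from the values, so a gene without reads had a value of 0.118 to 0.149, and 1 with 3 reads had 0.825 to 1.04, depending on the library.

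The sort labels were compared with the genes they name. Pdgfra was at 839 and 794 in GFP− Pdgfra+, 733 and 754 in GFP+ Pdgfra+, 18.1 and 10.4 in GFP+ Pdgfra−, and 3.30 and 4.36 in GFP− Pdgfra− cells. Both Pdgfra+ populations lay above both Pdgfra− populations. Endogenous Nes was at 27.4 and 47.1 in GFP− Pdgfra+, 57.6 and 72.0 in GFP+ Pdgfra+, 149 and 176 in GFP+ Pdgfra−, and 3.59 and 9.08 in GFP− Pdgfra− cells. Within each Pdgfra class the GFP+ libraries were above the GFP− libraries for Nes, although the difference among Pdgfra+ cells was not called (log2 difference 0.82, limma adjusted p = 0.213).

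Elastic fibres give recoil to skin, vessels, lung and ligament. Fibrillins assemble into microfibrils, small glycoproteins bind along them, and tropoelastin, the product of Eln, is deposited on this scaffold with the help of fibulins before lysyl oxidase cross-links it. Microfibrils also hold latent complexes of transforming growth factor beta (TGF-beta) in the matrix.

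Populations were compared by limma on log2(value + 1), with 1 coefficient per population and Benjamini-Hochberg adjustment over all 15880 genes. A GFP effect or Pdgfra effect below means a difference between sorted populations, and not an action of GFP or Pdgfra on a gene. The threshold for calling a difference was an adjusted p of 0.05. Differences on this scale come out too small for weakly expressed genes. With 2 libraries against 2, an exact permutation test cannot give a two-sided p below 0.333, so each call rests on the spread that limma shares among genes. Comparisons that have a population in common are not independent.

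All 10 genes were called higher in GFP− Pdgfra+ than in GFP− Pdgfra− cells, where 32.9% of all genes were called higher and 26.8% lower, 59.7% in either direction. Within GFP+ cells, 9 of the 10 were called higher in the Pdgfra+ population, where 13.1% of all genes were called higher and 11.1% lower, 24.2% in either direction. In bulk samples, fewer cells of a type and less RNA per cell cannot be told apart. Among Pdgfra− cells, 8 of the 10 were called higher in the GFP+ population, where 30.1% of all genes were called higher and 23.6% lower, 53.7% in either direction. Which direction held more genes depended on the scaling. As reported, after median centring and after quantile normalization, the higher share of the called genes was 55.1%, 45.3% and 45.5% with Pdgfra in GFP− cells, 54.1%, 52.1% and 48.6% with Pdgfra in GFP+ cells and 56.1%, 44.6% and 46.7% with GFP in Pdgfra− cells. Between the 2 Pdgfra+ populations 1 of the 10, Eln, was called, lower in GFP+ cells, where 3.22% of all genes were called higher and 2.13% lower, 5.35% in either direction. Fbln2, Fbn2 and Mfap4, also lower there, narrowly missed the threshold (log2 differences −1.20, −0.53 and −0.77, limma adjusted p = 0.0540, 0.0552 and 0.0560). Lox and Fbln5 were higher there and not called (limma adjusted p = 0.345 and 0.825). In this fit a single call among 10 genes is near that background, while other settings called 0 to 7 of the 10, as given below.

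**Figure D1:**
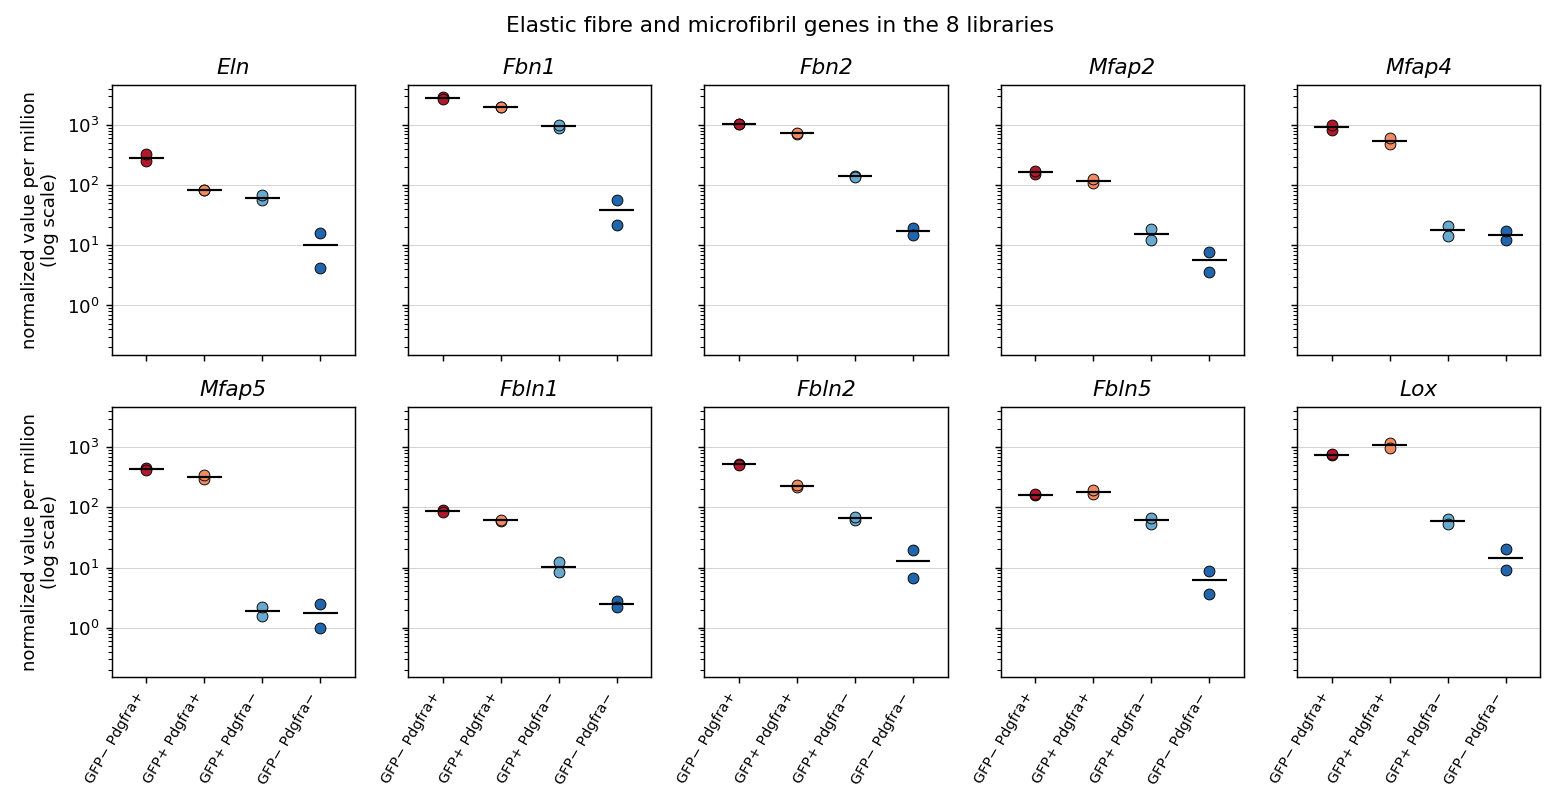
Normalized value of each of the 10 genes in the 8 libraries (vertical axis, reads per 1000000 of a scaled library size, log scale) by sorted population (horizontal axis). Points are single libraries, and horizontal lines are means of 2 libraries. The Pdgfra+ libraries lay above the Pdgfra− libraries for each of the 10 genes.

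Eln (ENSMUSG00000029675, chr5:135179651-135223111, minus strand in NCBIM37) encodes tropoelastin, the elastic core of the fibre. Its value was 250 and 326 in GFP− Pdgfra+, 81.9 and 82.9 in GFP+ Pdgfra+, 56.2 and 67.5 in GFP+ Pdgfra−, and 4.16 and 16.2 in GFP− Pdgfra− cells. The GFP− Pdgfra+ libraries stood above all others, the GFP− Pdgfra− libraries lay below all others, and no populations overlapped. Mean levels were 288 ± 53.7 in GFP− Pdgfra+ and 82.4 ± 0.739 in GFP+ Pdgfra+ cells (SD, n = 2 each), a 3.49-fold difference.

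Eln was lower in GFP+ than in GFP− cells among the Pdgfra+ populations, with a log2 difference of −1.78 ± 0.40 (± SE, limma adjusted p = 0.0229). That call was lost without any 1 of the 4 Pdgfra+ libraries or the 2 GFP+ Pdgfra− libraries, with limma adjusted p from 0.0683 to 0.208, while the log2 difference stayed between −1.97 and −1.59 over the alternatives tried. Without the variance trend its adjusted p was 0.127, and with a pseudocount of 0.1 it was 0.0642. The 2 GFP+ populations were not called apart for Eln (log2 difference 0.41, 95% interval −0.46 to 1.28, limma adjusted p = 0.504). Between the Pdgfra− populations Eln was higher in the GFP+ cells by 2.73 ± 0.40 (log2, limma adjusted p = 9.91e-05), and the difference ranged from 1.87 to 3.6 over the alternatives. The annotated Eln transcript runs from start codon to stop codon, 2583 bases, so reads from untranslated ends would not have been counted.

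The 2 fibrillins form the backbone of the microfibril, with Fbn2 mainly in developing tissue. Fbn1 (ENSMUSG00000027204, chr2:125126330-125333729, minus strand) was at 2906 and 2676 in GFP− Pdgfra+, 2033 and 2027 in GFP+ Pdgfra+, 891 and 1005 in GFP+ Pdgfra−, and 22.0 and 56.0 in GFP− Pdgfra− cells. Its 4 populations did not overlap, and the GFP− Pdgfra− libraries were far below the rest. Among the 10 genes Fbn1 had the largest GFP effect in Pdgfra− cells, 4.71 ± 0.29 (log2, limma adjusted p = 7.26e-08, 4.05 to 5.37 over the alternatives). In GFP+ cells the Pdgfra+ mean of Fbn1 was 2.14-fold the Pdgfra− mean (95% interval of the log2 difference 0.46 to 1.74, limma adjusted p = 0.0171). The latter call was lost without any 1 of the 4 GFP+ libraries (limma adjusted p 0.0820 to 0.142), without the variance trend (0.0961) and after quantile normalization (0.0795).

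Fbn2 (ENSMUSG00000024598, chr18:58168277-58369580, minus strand) was at 1055 and 1046 in GFP− Pdgfra+, 708 and 751 in GFP+ Pdgfra+, 143 and 138 in GFP+ Pdgfra−, and 19.7 and 14.7 in GFP− Pdgfra− cells. Replicates were close together in the 3 higher populations, and no populations overlapped. The Pdgfra effect on Fbn2 was 5.87 ± 0.14 in GFP− cells and 2.37 ± 0.14 in GFP+ cells (log2, limma adjusted p = 4.29e-11 and 5.70e-07). The ratio of the Fbn1 to the Fbn2 value, a ratio of reads and not of molecules, was 2.75 and 2.56 in GFP− Pdgfra+, 2.87 and 2.70 in GFP+ Pdgfra+, 6.25 and 7.31 in GFP+ Pdgfra−, and 1.12 and 3.80 in GFP− Pdgfra− cells. Both GFP+ Pdgfra− libraries had a higher ratio than the other 6 libraries; the ratio was not tested.

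Microfibril-associated glycoproteins bind along the fibrillin backbone. Mfap2 (ENSMUSG00000060572, chr4:140566333-140571899, plus strand) and Mfap5 (ENSMUSG00000030116, chr6:122455863-122479308, plus strand) encode the related proteins MAGP-1 and MAGP-2. Mfap4 (ENSMUSG00000042436, chr11:61298933-61302402, plus strand) encodes a fibrinogen-related protein that binds tropoelastin and fibrillin. Mfap2 was at 152 and 174 in GFP− Pdgfra+, 107 and 129 in GFP+ Pdgfra+, 12.3 and 18.4 in GFP+ Pdgfra−, and 7.61 and 3.66 in GFP− Pdgfra− cells. No 2 populations overlapped for Mfap2, and the GFP+ Pdgfra− cells had 9.41% of the highest population mean.

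Mfap4 was at 830 and 1010 in GFP− Pdgfra+, 483 and 599 in GFP+ Pdgfra+, 21.2 and 14.5 in GFP+ Pdgfra−, and 12.5 and 17.1 in GFP− Pdgfra− cells. Mfap5 was at 447 and 418 in GFP− Pdgfra+, 294 and 349 in GFP+ Pdgfra+, 1.58 and 2.19 in GFP+ Pdgfra−, and 1.01 and 2.48 in GFP− Pdgfra− cells. For both genes the Pdgfra+ libraries were all high, the Pdgfra− libraries were all low, and the 2 Pdgfra− populations overlapped. In the Pdgfra− populations Mfap5 rested on 3 to 10 reads per library.

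In the reported fit Mfap5 had the largest Pdgfra effect of the 10 genes in both GFP classes. It was 7.36 ± 0.26 in GFP− cells and 6.81 ± 0.26 in GFP+ cells (log2, limma adjusted p = 4.10e-10 and 2.64e-08). Over the alternatives these were 6.03 to 8.02 and 5.56 to 7.52. The range of Fbn1 in GFP− cells, 5.61 to 6.92, overlaps that of Mfap5, so the rank there can depend on the setting. As a ratio of means, GFP+ Pdgfra+ cells had 171-fold more Mfap5 and 30.2-fold more Mfap4 than GFP+ Pdgfra− cells. Neither gene was called between the Pdgfra− populations, with a GFP effect of 0.25 for Mfap4 (log2, 95% interval −0.20 to 0.70, limma adjusted p = 0.336) and 0.12 for Mfap5 (−0.45 to 0.69, 0.732), and both turned negative after median centring or quantile normalization. Without the first GFP+ Pdgfra− library the Mfap4 effect was −0.00850. Without the first GFP− Pdgfra− or the second GFP+ Pdgfra− library the Mfap5 effect was −0.278 or −0.0343. Mfap2 had a called GFP effect in that comparison, 1.34 ± 0.29 (log2, limma adjusted p = 0.00168), and the difference between the 3 genes was not tested.

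Fibulins bridge tropoelastin, microfibrils and basement membranes. Fbln5 (ENSMUSG00000021186, chr12:102984775-103057265, minus strand) organizes tropoelastin for cross-linking and binds integrins. Its value was 160 and 166 in GFP− Pdgfra+, 167 and 198 in GFP+ Pdgfra+, 54.0 and 67.8 in GFP+ Pdgfra−, and 3.59 and 8.61 in GFP− Pdgfra− cells. The GFP+ Pdgfra+ libraries were slightly above the GFP− Pdgfra+ libraries (log2 difference 0.16, 95% interval −0.45 to 0.77, limma adjusted p = 0.825), and the Pdgfra− libraries were lower. GFP+ Pdgfra− cells had 33.4% of the highest mean of Fbln5 and 34.0% of that of Fbn1.

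Fbln2 (ENSMUSG00000064080, chr6:91162449-91222534, plus strand) binds fibrillin-1, tropoelastin and basement membrane proteins. It was at 530 and 509 in GFP− Pdgfra+, 215 and 238 in GFP+ Pdgfra+, 62.5 and 69.3 in GFP+ Pdgfra−, and 6.75 and 19.5 in GFP− Pdgfra− cells. The populations ran in the order of Eln, with no overlap. Its GFP effect in Pdgfra+ cells, −1.20 ± 0.32 (log2), was the most negative after that of Eln and missed the threshold (limma adjusted p = 0.0540). Fbln2 was called with the replicate set as a block (0.0248), after median centring (0.0396), after quantile normalization (0.0369), with a filter on low values (0.0403), with a pseudocount of 5 (0.0133) and with the compared populations only (0.00142). It was also called by edgeR (0.0107) and voom (1.39e-04), and without either or both of the GFP− Pdgfra− libraries. It was not called without any 1 of the 4 Pdgfra+ or 2 GFP+ Pdgfra− libraries, without the variance trend (0.196) or with a pseudocount of 0.1. The log2 difference stayed between −1.27 and −1.12 over the alternatives.

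Fbln1 (ENSMUSG00000006369, chr15:85036379-85116965, plus strand), found in elastic fibres and basement membranes, was at 92.2 and 82.4 in GFP− Pdgfra+, 60.6 and 60.8 in GFP+ Pdgfra+, 12.3 and 8.36 in GFP+ Pdgfra−, and 2.73 and 2.24 in GFP− Pdgfra− cells. Its 4 populations were separate as well. The Pdgfra effect was 4.66 ± 0.25 in GFP− cells and 2.47 ± 0.25 in GFP+ cells (log2, limma adjusted p = 1.09e-08 and 2.26e-05), and over the alternatives it was 3.62 to 5.15 and 2.11 to 2.72.

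Lox (ENSMUSG00000024529, chr18:52675723-52689521, minus strand) encodes lysyl oxidase, the copper enzyme that starts the cross-linking of elastin and fibrillar collagen. It was at 744 and 760 in GFP− Pdgfra+, 1185 and 969 in GFP+ Pdgfra+, 65.2 and 52.1 in GFP+ Pdgfra−, and 20.2 and 9.08 in GFP− Pdgfra− cells. The GFP+ Pdgfra+ libraries were the highest, and no populations overlapped. Lox and Fbln5 were the 2 of 10 genes with their highest mean in GFP+ Pdgfra+ cells, but Lox was not called between the Pdgfra+ populations (log2 difference 0.51, 95% interval −0.07 to 1.09, limma adjusted p = 0.345). Lox was called there by voom (0.0141), without the second GFP− Pdgfra− library (0.0494) and without both of these libraries (0.0434). The value of Lox over that of Eln was 2.98 and 2.33 in the GFP− Pdgfra+ libraries and 14.5 and 11.7 in the GFP+ Pdgfra+ libraries, with no overlap and no test.

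**Figure D2:**
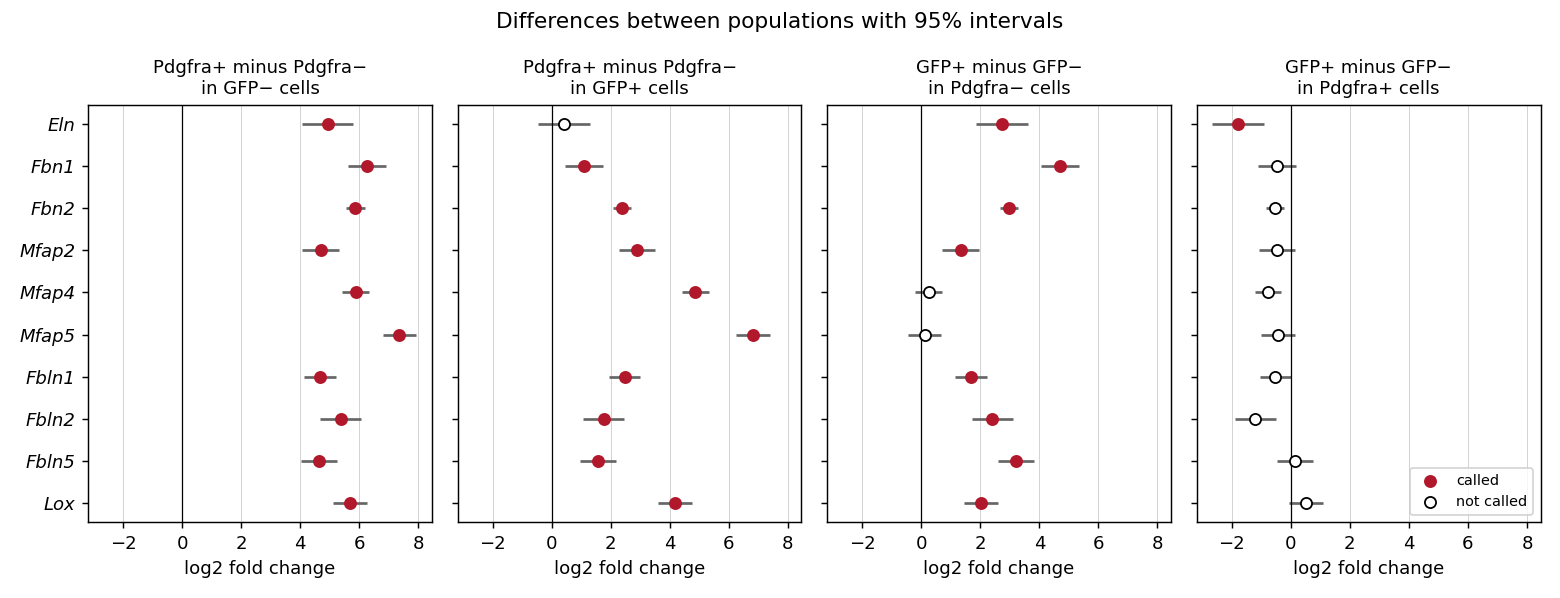
Log2 differences of the 10 genes (horizontal axis, log2(value + 1) scale) in 4 comparisons of sorted populations, with 95% intervals from limma as lines. Filled points have an adjusted p of at most 0.05 over all genes, and open points do not. The GFP effects of Mfap4 and Mfap5 among Pdgfra− cells change sign after median centring or quantile normalization.

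The population means ran in the same order for 8 of the 10 genes, GFP− Pdgfra+ above GFP+ Pdgfra+ above GFP+ Pdgfra− above GFP− Pdgfra−. In Fbln5 and Lox the first 2 populations changed places. All 10 genes were called higher in GFP− Pdgfra+ than in GFP+ Pdgfra− cells, where 14.3% of all genes were called higher and 13.5% lower, 27.9% in either direction (higher share of the called 51.4%, and 50.0% or 48.2% after median centring or quantile normalization). Their log2 differences ran from 1.41 for Fbln5 (1.25 to 1.57 over the alternatives) to 7.24 for Mfap5 (5.99 to 7.94). Likewise all 10 were called higher in GFP+ Pdgfra+ than in GFP− Pdgfra− cells, where 32.9% of all genes were called higher and 26.4% lower, 59.3% in either direction (higher share of the called 55.5%, and 44.8% or 44.2% after these scalings), with log2 differences from 3.15 for Eln (2.28 to 4.01 over the alternatives) to 6.93 for Mfap5 (5.60 to 7.59). Median centring would lower the Pdgfra effects in GFP− cells by 0.31, the GFP effects in Pdgfra− cells by 0.29 and this last set by 0.31 (log2).

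Between the 2 Pdgfra+ populations the 10 genes had a median log2 difference of −0.49 (GFP+ minus GFP−), beside 0.00 over all genes, and 4 of 10 had an unadjusted limma p under 0.05, as did 18.6% of all genes. With the replicate set as an added term (a block), 4 genes were called in place of 1, Eln, Fbn2 (limma adjusted p = 0.0458), Mfap4 (0.0489) and Fbln2 (0.0248). Of all genes 924 were called then, in place of 849. Without both GFP− Pdgfra− libraries, an alternative chosen after their erythroid reads had been seen, limma called 6 of 10 (and 1126 of all genes), with Eln, Fbn1, Fbn2, Mfap4 and Fbln2 lower and Lox higher in the GFP+ cells. Without the first or the second of those libraries it called 5 or 6 (all genes 1081 or 1083), and without any 1 of the other 6 libraries 0 (all genes 246 to 633). With all libraries voom called 7 and edgeR 3, beside 1057 and 893 of all genes.

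Whether the difference between GFP+ and GFP− cells varied with the Pdgfra class was tested as an interaction. In that test 19.1% of all genes were called higher and 25.2% lower, 44.3% in either direction. The higher share of the called was 43.1%, or 54.5% after median centring. It was called negative for 9 of the 10 genes, so their GFP effect was more positive among Pdgfra− cells. Fbn1 had the largest interaction, −5.17 ± 0.41 (log2, limma adjusted p = 1.43e-06, −5.82 to −4.51 over the alternatives), and that of Eln was −4.51 ± 0.56 (4.79e-05, −5.38 to −3.65). Mfap5 had −0.55 (log2, 95% interval −1.35 to 0.26, limma adjusted p = 0.253), which became 0.150 after quantile normalization. Without the second GFP− Pdgfra− library it was −0.95 and called (limma adjusted p = 0.0216). The Mfap4 interaction, −1.02 ± 0.29 (log2, limma adjusted p = 0.0143), lost its call after median centring (0.0602), after quantile normalization (0.142), without the variance trend (0.0738) and with voom (0.0856). It was also lost without the first GFP+ Pdgfra− (0.0725), the first GFP+ Pdgfra+ (0.0664) or the second GFP− Pdgfra+ library (0.0790).

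Levels can be compared between genes only per length. Per kilobase (kb) of exon, the mean value in GFP− Pdgfra+ cells was 479 for Mfap4, 230 for Fbn1 and 160 for Lox, and it was lowest for Fbln1. With the longest transcript as length, Mfap5 at 174 came before Lox at 168 there. In GFP+ Pdgfra+ cells the value per kb was 281 for Mfap4, 229 for Lox and 167 for Fbn1. GFP+ Pdgfra− cells had another ranking per kb, with Fbn1 first at 78.2, Eln second at 24.0 and Mfap5 last at 0.525. Fbn1 made up 44.8% of the summed per-kb value of the 10 genes there, beside 15.6% in GFP− Pdgfra+ and 15.9% in GFP+ Pdgfra+ cells. Mfap4 made up 5.33% beside 32.5% and 26.8%. In GFP− Pdgfra− cells, where every member had its lowest mean, Fbn1 made up 11.2% and Mfap4 26.9%. These shares were not tested.

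Of 70 other genes in 10 lists of the pathway, 68 were among the 15880 genes with values, and Tll2 and Mmrn1 were not. The paper tested only genes above a minimum count, so absence here need not mean that a gene had no reads. With Pdgfra in GFP− cells 56 of the 68 were called higher and 4 lower (median log2 difference 3.64, all genes 0.17), and with Pdgfra in GFP+ cells 43 higher and 5 lower (median 1.11, all genes −0.02). With GFP in Pdgfra− cells 46 were higher and 6 lower (median 1.94, all genes 0.15), and with GFP in Pdgfra+ cells 7 higher and 7 lower (median −0.19, all genes 0.00). Of all genes 32.9% and 26.8% were called higher and lower in the first of these comparisons, 13.1% and 11.1% in the second, 30.1% and 23.6% in the third, and 3.22% and 2.13% in the last. The counts of single lists below are for the first comparison and stand beside its shares. The members' own medians in these 4 comparisons were 5.53, 2.42, 2.21 and −0.49.

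Latent TGF-beta binding proteins, relatives of the fibrillins, dock latent TGF-beta on microfibrils, and all 4 of 4 were called higher with Pdgfra in GFP− cells. Ltbp4, which also takes part in elastic fibre assembly, was at 361 and 374 in GFP− Pdgfra+, 309 and 351 in GFP+ Pdgfra+, 172 and 193 in GFP+ Pdgfra−, and 8.76 and 12.6 in GFP− Pdgfra− cells. It ran in the order of Fbn1. Ltbp1 was at 267 and 260 in GFP− Pdgfra+, 191 and 193 in GFP+ Pdgfra+, 312 and 375 in GFP+ Pdgfra−, and 69.1 and 59.3 in GFP− Pdgfra− cells. Unlike the members, Ltbp1 was highest in GFP+ Pdgfra− cells, with a Pdgfra effect in GFP+ cells of −0.83 (log2, limma adjusted p = 9.54e-04). Ltbp3 was lower in GFP+ than in GFP− cells among Pdgfra+ cells, at 120 and 109 against 226 and 192 (log2 difference −0.86, limma adjusted p = 0.0469), the direction of Eln. The Ltbp3 call was lost without any 1 of the 4 Pdgfra+ or the 2 GFP+ Pdgfra− libraries (limma adjusted p 0.0993 to 0.299), without the variance trend (0.166) and with a pseudocount of 0.1 (0.0894).

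The 5 other fibulin relatives were also all called higher with Pdgfra in GFP− cells. Hmcn2 was at 57.4 and 67.6 in GFP− Pdgfra+, 119 and 115 in GFP+ Pdgfra+, 609 and 707 in GFP+ Pdgfra−, and 4.74 and 6.48 in GFP− Pdgfra− cells. It was highest in GFP+ Pdgfra− cells, an order not seen in Fbln1, Fbln2 or Fbln5. Hmcn1 was at 262 and 256 in GFP− Pdgfra+ but 22.2 and 24.6 in GFP+ Pdgfra− cells. Efemp2, also named fibulin-4 and needed with Lox for elastin cross-linking, was at 34.2 and 35.2 in GFP− Pdgfra+, 41.6 and 45.9 in GFP+ Pdgfra+, 18.6 and 14.5 in GFP+ Pdgfra−, and 2.15 and 0.825 in GFP− Pdgfra− cells. Like Lox and Fbln5 it was highest in GFP+ Pdgfra+ cells, without a call between the Pdgfra+ populations (log2 difference 0.32, limma adjusted p = 0.639).

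The lysyl oxidase list joined Lox with its relatives and the proteins that mature it, and 8 of the 9 others measured were called higher with Pdgfra in GFP− cells. Postn, a matricellular protein linked to Lox activation, was at 11988 and 11989 in GFP− Pdgfra+, 4514 and 5289 in GFP+ Pdgfra+, 841 and 855 in GFP+ Pdgfra−, and 166 and 195 in GFP− Pdgfra− cells. Like Eln it was lower in GFP+ than in GFP− cells among Pdgfra+ cells (log2 difference −1.29, limma adjusted p = 1.41e-04). Loxl2 was at 679 and 701 in GFP− Pdgfra+ and 698 and 669 in GFP+ Pdgfra+ cells, and Pcolce, an enhancer of procollagen cleavage, at 514 and 510 and 698 and 601. Neither was called.

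Emilins are glycoproteins at the surface of elastic fibres, and 3 of 4 genes of their list were called higher with Pdgfra in GFP− cells. Among them is Emilin2, whose call was lost with a pseudocount of 0.1 (limma adjusted p = 0.0646), without the variance trend (0.0675), after median centring (0.133), and without the first GFP− Pdgfra− (0.112), the first GFP− Pdgfra+ (0.153) or the second GFP− Pdgfra+ library (0.0598). Emilin1 was at 104 and 109 in GFP− Pdgfra+, 101 and 78.6 in GFP+ Pdgfra+, 26.8 and 32.0 in GFP+ Pdgfra−, and 4.16 and 8.84 in GFP− Pdgfra− cells. Emilin2 was higher in GFP− Pdgfra− cells, at 46.1 and 54.4, than in GFP+ Pdgfra− cells, at 1.34 and 3.22 (log2 difference −4.02, limma adjusted p = 1.69e-07, −4.68 to −2.93 over the alternatives), opposite to 8 of the 10 members. Emilin3 was at 31.6 and 43.5 in GFP− Pdgfra+ cells and 1.29 and 1.53 in GFP− Pdgfra− cells. Among other genes named for microfibrils, Mfap1a and Mfap1b, near-identical genes whose division of reads is uncertain, ranged from 50.1 to 90.9, and Mfap3 from 39.2 to 85.5. With Mfap3l they had a median Pdgfra effect in GFP− cells of 0.43 (log2), 2 of 4 called higher.

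Proteins of the ADAMTS and ADAMTS-like family bind and remodel fibrillin microfibrils. Of the 11 measured, 10 were called higher with Pdgfra in GFP− cells. Adamts10 was at 130 and 137 in GFP− Pdgfra+, 113 and 117 in GFP+ Pdgfra+, 80.2 and 81.9 in GFP+ Pdgfra−, and 3.88 and 2.24 in GFP− Pdgfra− cells. Adamtsl4, which binds fibrillin-1, was lower in GFP+ Pdgfra+ cells, at 69.5 and 82.1, than in GFP− Pdgfra+ cells, at 196 and 194 (log2 difference −1.36, limma adjusted p = 0.00456). The Adamtsl4 call was lost without the first or the second GFP− Pdgfra+ library (0.0689 and 0.0713) and without the first GFP+ Pdgfra+ library (0.0570). Adamtsl3 was at 170 and 208 in GFP− Pdgfra+ and 0.607 and 2.96 in GFP+ Pdgfra− cells, a step of the kind seen in Mfap5.

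Pericellular partners included Fn1, whose fibronectin network guides fibrillin assembly, Vcan, a proteoglycan that binds fibrillin, and Bgn, a small proteoglycan. Fn1 was at 4332 and 4112 in GFP− Pdgfra+ and 496 and 525 in GFP+ Pdgfra− libraries, Vcan at 3914 and 3279 and 576 and 615, and Bgn at 3725 and 3533 and 343 and 341. These 3 genes were called higher with Pdgfra in both GFP classes, and 12 of the 13 genes of the list with Pdgfra in GFP− cells.

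The last 3 lists held the tropoelastin chaperone with the elastin receptor, elastin-degrading proteases and TGF-beta genes, with 3 of 4, 4 of 8 and 5 of 6 called higher with Pdgfra in GFP− cells, and 0, 3 and 1 called lower. The counts of the proteases are near the shares of all genes in that comparison, 32.9% higher and 26.8% lower. Fkbp10, a chaperone of tropoelastin and collagen, was higher in GFP+ Pdgfra+ cells, at 453 and 316, than in GFP− Pdgfra+ cells, at 204 and 204 (log2 difference 0.89, limma adjusted p = 0.0275), opposite to Eln. The Fkbp10 call was lost without either GFP− Pdgfra+ library (0.172 and 0.173), either GFP+ Pdgfra− library (0.0670 and 0.0674) or the first GFP+ Pdgfra+ library (0.211, log2 difference 0.63), without the variance trend (0.144) and with a pseudocount of 0.1 (0.0530). Ctsa and Glb1, subunits of the receptor complex, ranged from 48.1 to 111 and from 12.9 to 36.2. Ctsa was called higher with Pdgfra in GFP− cells (log2 difference 1.15, limma adjusted p = 2.97e-05) and in GFP+ cells (0.98, 5.37e-04), and Glb1 in GFP− cells (1.07, 0.00550), a call lost without the first GFP− Pdgfra+ library (0.0605). The protease Mmp2 was at 674 and 665 in GFP− Pdgfra+ and 15.9 and 18.7 in GFP− Pdgfra− cells, and Mmp14 and Ctsl had Pdgfra effects in GFP− cells of 3.62 and 3.05 (log2). In the same comparison the TGF-beta genes Tgfb3, Tgfbr2 and Tgfbr3 had 6.13, 4.16 and 2.67, and the first was 4.98 to 7.21 over the alternatives.

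Genes with the most similar profile were sought among the 9018 genes with a mean value of at least 10, by the root mean square difference of log2 profiles over the 8 libraries. For Eln the nearest were Fst (0.32), Cxcr7 (0.33), Sod3 (0.41), Fam189b (0.41) and Ppp1r3c (0.43). Fst, the activin antagonist follistatin, was at 57.4 and 48.6 in GFP− Pdgfra+, 24.2 and 18.0 in GFP+ Pdgfra+, 10.6 and 11.4 in GFP+ Pdgfra−, and 0.144 and 1.53 in GFP− Pdgfra− cells, the last from 0 and 6 reads. For Fbn1 the nearest were Plagl1 (0.18), Lpar1 (0.23), Pdzrn3 (0.27), Mxra8 (0.29) and Rbms3 (0.34). Plagl1, an imprinted transcription factor, was at 2041 and 1965 in GFP− Pdgfra+, 1358 and 1649 in GFP+ Pdgfra+, 701 and 724 in GFP+ Pdgfra−, and 15.1 and 28.9 in GFP− Pdgfra− cells. Like Fbn1 it was lowest in GFP− Pdgfra− cells and kept a high value in GFP+ Pdgfra− cells.

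Markers of other cell types also differed between the populations. All 6 tendon and perichondrial fibroblast genes were measured, with Thbs4 the most abundant, and their summed value was 3854 and 3906 in GFP− Pdgfra+, 655 and 665 in GFP+ Pdgfra+, 26.0 and 26.2 in GFP+ Pdgfra−, and 103 and 142 in GFP− Pdgfra− cells. Scx had at most 3 reads in both libraries of the GFP+ Pdgfra+ and of the GFP− Pdgfra− cells, and Kera in GFP+ Pdgfra− cells. Beside the single call of Eln, 6 of these 6 genes were called lower in GFP+ than in GFP− cells among Pdgfra+ cells. Of all genes 2.13% were called lower there. The part of these 6 genes in the Eln difference was not tested. The 6 loose connective tissue fibroblast genes, led by Col14a1, summed to 1819 and 1635 in GFP− Pdgfra+, 1187 and 1166 in GFP+ Pdgfra+, 236 and 222 in GFP+ Pdgfra−, and 17.2 and 28.8 in GFP− Pdgfra− cells. Pi16 and Clec3b were at 3 reads or fewer in both Pdgfra− populations, and Ly6a in GFP+ Pdgfra− cells. This sum ran in the order of 8 of the members, and its part in their Pdgfra effects was not tested.

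The 7 osteoblast genes, led by Col1a1, summed to 17317 and 15673 in GFP− Pdgfra+, 60761 and 44652 in GFP+ Pdgfra+, 3827 and 3169 in GFP+ Pdgfra−, and 549 and 671 in GFP− Pdgfra− cells, with Bglap at 3 reads or fewer in the last. Of these, 7 were called higher in GFP+ than in GFP− cells among Pdgfra+ cells, beside 3.22% of all genes. Lox and Fbln5 had their highest means in the GFP+ Pdgfra+ cells. The part of the osteoblast genes in the Lox and Fbln5 levels was not tested. The 6 chondrocyte genes, led by Col2a1, summed to 603 and 1958 in GFP− Pdgfra+, 292 and 370 in GFP+ Pdgfra+, 66.8 and 96.2 in GFP+ Pdgfra−, and 501 and 914 in GFP− Pdgfra− cells, with Matn1 at 3 reads or fewer in the first 3 populations. The GFP− Pdgfra+ replicates differed in this sum more than in any of the members.

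In the GFP+ Pdgfra− cells 3 lists had their highest sums. The 11 smooth muscle and pericyte genes, led by Rgs5, summed to 436 and 447 in GFP− Pdgfra+, 627 and 535 in GFP+ Pdgfra+, 2551 and 3288 in GFP+ Pdgfra−, and 94.4 and 154 in GFP− Pdgfra− cells, with Cnn1 at 3 reads or fewer in the last. The 7 skeletal muscle genes, led by Pax7, summed to 20.5 and 17.7 in GFP− Pdgfra+, 43.8 and 53.3 in GFP+ Pdgfra+, 716 and 723 in GFP+ Pdgfra−, and 19.1 and 10.7 in GFP− Pdgfra− cells. Myod1 and Myf5 were at 3 reads or fewer in both GFP− populations, with Pax7 and Myog in GFP− Pdgfra+ and Ckm in GFP− Pdgfra− cells. The 6 Schwann cell genes, led by Erbb3, summed to 19.4 and 40.4 in GFP− Pdgfra+, 104 and 71.6 in GFP+ Pdgfra+, 431 and 402 in GFP+ Pdgfra−, and 23.6 and 40.6 in GFP− Pdgfra− cells, with Sox10 at 3 reads or fewer in GFP− Pdgfra+ cells. These markers stood beside the higher Fbn1, Eln and Fbln5 of GFP+ Pdgfra− over GFP− Pdgfra− cells. The osteoblast and loose connective tissue sums were also higher in that comparison, and the tendon, chondrocyte, erythroid and leukocyte sums were lower. Of the 7 osteoblast genes 7 were called higher there, and of the 6 loose connective tissue genes 3, with 0 lower in either list. Of all genes 30.1% were called higher and 23.6% lower. Which cells carried the Fbn1, Eln and Fbln5 reads was not tested.

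The GFP− Pdgfra− libraries also differed in content. The 4 erythroid genes, led by Hbb-b1, summed to 34.8 and 28.5 in GFP− Pdgfra+, 23.5 and 27.9 in GFP+ Pdgfra+, 81.3 and 49.1 in GFP+ Pdgfra−, and 6661 and 12032 in GFP− Pdgfra− cells, despite the sort against Ter119. Mitochondrial ribosomal RNA (mt-Rnr2) held 27.2% and 29.1% of reads there. It held 17.6% and 15.6% in GFP+ Pdgfra− libraries and 9.52% to 10.8% in the Pdgfra+ libraries. The part of this content in the low member values was not tested. The 5 endothelial genes, led by Tek, summed to between 30.6 and 113 in all libraries, after the sort against CD31, with Emcn at 3 reads or fewer in GFP− Pdgfra+ cells. The 6 leukocyte genes, led by Lyz2, summed to 67.5 at most in GFP− Pdgfra− cells, where both libraries were highest, and to 5.25 to 31.3 elsewhere, after the sort against CD45, with Ptprc at 3 reads or fewer in GFP− Pdgfra+ cells. Of these, 5 were called lower with Pdgfra in GFP− cells and 5 lower in double-positive than in double-negative cells. Of all genes 26.8% and 26.4% were called lower in these comparisons. The part of the leukocyte genes in the member differences was not tested.

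Of the 10 genes, 2 overlap another measured gene on the opposite strand, and the labels do not say whether reads were counted by strand. Fbn1 shares 2442 exonic bases with Gm9913, which had 0 to 10 reads per library. Mfap4 shares 89 with Mapk7, which was at 28.8 and 24.3 in GFP+ Pdgfra− and 5.89 and 10.3 in GFP− Pdgfra− cells. Reads in the shared bases cannot be told apart, which bears most on Mfap4 in Pdgfra− cells.

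Upstream sequences are shown for the 4 genes whose first listed window holds a GC box, so that its place can be seen. RefSeq promoters of the GRCm38.p6 build were listed for 5 of the 10 genes, Fbn1, Mfap2, Fbln1, Fbln2 and Fbln5, in 8 windows. The other 5, Eln, Fbn2, Mfap4, Mfap5 and Lox, are without a window here. Each sequence is the 250 bases before the annotated start, on the strand of the gene, with motif matches in capitals. The motifs searched on both strands were the TATA box TATAAA, the GC box spelled GGGCGG, and the AP-1 element written as TGANTCA. Windows are chr2:125506439-125506688 (minus strand) for Fbn1, chr4:141010431-141010680 (plus strand) for the first listed Mfap2 start, chr6:91212514-91212763 (plus strand) for Fbln2, and chr12:101819120-101819369 (minus strand) for the first listed Fbln5 start.
Fbn1: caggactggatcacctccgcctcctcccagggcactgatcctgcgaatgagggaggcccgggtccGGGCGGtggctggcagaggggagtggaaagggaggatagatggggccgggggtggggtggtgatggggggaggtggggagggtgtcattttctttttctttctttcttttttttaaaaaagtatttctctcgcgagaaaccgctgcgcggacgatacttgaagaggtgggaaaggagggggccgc
Mfap2: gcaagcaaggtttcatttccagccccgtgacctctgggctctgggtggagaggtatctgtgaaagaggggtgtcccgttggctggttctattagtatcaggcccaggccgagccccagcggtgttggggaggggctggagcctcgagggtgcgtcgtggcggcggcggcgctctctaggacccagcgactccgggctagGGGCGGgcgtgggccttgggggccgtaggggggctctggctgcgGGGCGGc
Fbln2: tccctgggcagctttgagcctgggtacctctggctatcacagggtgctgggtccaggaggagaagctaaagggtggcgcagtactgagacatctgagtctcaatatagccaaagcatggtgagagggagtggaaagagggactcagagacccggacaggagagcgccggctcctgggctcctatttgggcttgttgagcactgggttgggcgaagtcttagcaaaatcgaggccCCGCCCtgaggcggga
Fbln5: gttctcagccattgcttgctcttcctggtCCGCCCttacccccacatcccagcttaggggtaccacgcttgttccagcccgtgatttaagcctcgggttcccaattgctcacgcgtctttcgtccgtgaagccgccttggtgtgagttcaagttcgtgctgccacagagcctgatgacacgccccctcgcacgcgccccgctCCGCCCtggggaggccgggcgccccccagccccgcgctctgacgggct

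Of the 8 windows, 5 held GGGCGG or its complement, the 4 chosen for it and 1 for Fbln1. It occurred 1 time in the windows of Fbn1 and Fbln2 and 2 times in those of Mfap2 and Fbln5. The first listed window of Fbln1 and the second ones of Mfap2 and Fbln5 held none. None of the 8 held either of the other motifs. Over all 32851 promoter windows of this length, 32.7% held GGGCGG, 12.4% TATAAA and 6.75% the AP-1 element. GC content of the windows shown was 59.2% for Fbn1, 68.8% for Mfap2, 58.8% for Fbln2 and 65.2% for Fbln5, beside a median of 52.4% over all windows. A match describes letters and not a bound site.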

How the data were processed

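Expression was measured in 8 libraries, 2 from each of 4 sorted populations. The submitters' notes name cutadapt, Picard, RSEM 1.17 and limma, with the NCBIM37 assembly. The deposited values are a normalized signal per gene, which the authors made from RSEM reads over a scaled library size. Each was converted back to reads, with an offset of 0.5 reads inferred from the values, and 100% of the values came out whole within 0.05.

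Symbols, coordinates and exon lengths came from GENCODE M1 (15849 of 15880 identifiers matched). limma 3.58.1 in R 4.3.3 was run on log2(value + 1), with edgeR 4.0.16 and voom on the recovered reads as alternatives. Tables were made with pandas 2.3.3. The members and lists were chosen with earlier results of these data known. Named were the members, the 3 most abundant other genes of each pathway list, the leading and near-absent genes of each marker list, the nearest profiles and the sort genes. The value of 1 near-absent marker is not reported here.

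Between replicates the spread exceeded that from sampling reads, with a scaled chi-square of 4.12 to 9.12. Each replicate set came from pooled littermates, so same-numbered libraries may share a litter. The reported comparisons have no replicate term, and a replicate block was run as an alternative. Deviations of same-numbered libraries correlated at 0.0147 to 0.0999 over 13129 genes, all above 0. The cDNA was amplified and the labels name no molecular identifiers, so read floors cover counting error only.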

Additional observations from a re-analysis of the deposited data

Results flagged for a closer look

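For 9 of the 10 genes the GFP effect differed between Pdgfra+ and Pdgfra− cells by the limma interaction test (difference of log2 differences, adjusted p of at most 0.05), with 25.2% of all genes called lower and 44.3% in either direction. It was −5.17 for Fbn1, −4.51 for Eln, −3.60 for Fbln2, −3.49 for Fbn2, −3.05 for Fbln5, −2.20 for Fbln1, −1.80 for Mfap2, −1.51 for Lox and −1.02 for Mfap4. Over the alternatives it ranged from −5.82 to −4.51 for Fbn1, −5.38 to −3.65 for Eln, −4.3 to −2.9 for Fbln2, −3.69 to −3.21 for Fbn2, −3.58 to −2.44 for Fbln5, −2.57 to −1.51 for Fbln1, −2.25 to −1.29 for Mfap2, −2.05 to −0.969 for Lox and −1.28 to −0.556 for Mfap4, whose call was lost under some of them. Each of these uses the GFP− Pdgfra− libraries, whose erythroid and mt-Rnr2 content set them apart, and the part of that content was not tested.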

How the results depend on the processing

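Of the 7 comparisons, 6 called 8 to 10 members under every alternative run for them, within 1.5 times of the reported count. The compared populations only were not run for the interaction. Leaving out both GFP− Pdgfra− libraries was not run for comparisons that use them. The exception was GFP among Pdgfra+ cells, where 1 member was called: 0 at an adjusted p of 0.01, with a pseudocount of 0.1 or without the variance trend, 2 after median centring or quantile normalization, 3 with edgeR, 4 with a pseudocount of 5, a filter on low values or the compared populations only, and 7 with voom. Of all genes, 595 were called there with a pseudocount of 0.1, 884 after median centring and 859 after quantile normalization. A pseudocount of 5 called 1102 of all genes, the filter 849, the compared populations only 772, edgeR 893 and voom 1057. The replicate block gave 4 members there, with 924 of all genes in place of 849. Leaving out each library gave 0 to 6, and leaving out both GFP− Pdgfra− libraries, chosen after seeing the data, gave 6. Where a population is left with 1 library, that library is assumed to vary like the others. Among the members' log2 differences under alternatives, 1213 kept direction and side of the threshold, 37 gained a call, 21 lost one and 9 changed direction, none of them called. For the partners 1479 kept it and 64 lost a call. Counts of the pathway lists moved in 95 cases and did not in 1255, where a small change need not count as a move. With Pdgfra in GFP− cells the lists of Emilin2 and Glb1 lost these calls under some settings, as given above. The Mfap4 GFP effect in Pdgfra− cells became −0.0354 after median centring, −0.0412 after quantile normalization and −0.0085 to 0.509 on leaving out each library. The Mfap5 effect became −0.167, −0.542 and, with edgeR, −0.00649, and −0.278 to 0.515 on leaving out each library; its interaction became 0.15 after quantile normalization. Genes called fell from 849 to 361 (GFP in Pdgfra+ cells), 3848 to 2220 (Pdgfra in GFP+ cells) and 4427 to 2805 (single-positive populations) at an adjusted p of 0.01. Without the variance trend 849 fell to 532, and on leaving out a library they fell to as few as 246, 2158 and 2757. The share of called genes that were higher moved from 55.1% to 45.3% (Pdgfra in GFP− cells), 56.1% to 44.6% (GFP in Pdgfra− cells), 55.5% to 44.8% (double-positive against double-negative) and 43.1% to 54.5% (interaction) after median centring, to 45.5% (Pdgfra in GFP− cells) and 44.2% (double-positive against double-negative) after quantile normalization, and from 60.2% (GFP in Pdgfra+ cells) to 49.3% with voom and 76.1% without the first GFP− Pdgfra+ library. With the longest transcript as length, 12 of 40 levels per kb moved by more than 1 SD, and Mfap5 passed Lox in GFP− Pdgfra+ cells. The causes were not tested. With 2 libraries per population and few Mfap5 reads in Pdgfra− cells, its GFP effect there has a 95% interval of −0.45 to 0.69.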
